A study of Homo sapiens with 12 samples.

Results

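The genes described here are 9 core genes of MHC class I antigen presentation, out of 57865 rows of the deposited table. They were picked by name as the heavy chains HLA-B, HLA-C and HLA-E, the light chain B2M, the peptide transporter genes TAP1 and TAP2, the loading factor TAPBP, and the immunoproteasome subunits PSMB8 and PSMB9. In the deposited table hyphens are written as dots and most of these names carry a numeric suffix, so that only B2M matched letter for letter. The other 8 were found through the Ensembl identifier on their row, which names the same gene in GENCODE release 29. A further row named for TAP2 belongs to another gene, AL669918.1, held 0 reads in every library and was left out.

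Total RNA came from ES-2, a line established from an ovarian cancer. The cells had received an siRNA pool targeting IGF2BP1 (the siI1 group), IGF2BP2 (siI2) or IGF2BP3 (siI3), or control siRNA (siC). Each of the 4 groups held 3 libraries. The IGF2BP proteins bind mRNAs and affect their stability, transport and translation. All groups are cells of 1 line, and no source used here gives the time after siRNA treatment. Whether replicate libraries are separate cultures is not stated, so p-values measure only the spread between these libraries, which may be technical.

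Class I molecules show fragments of a cell's own proteins to CD8 T cells and to natural killer cells. Proteins are cut by the proteasome, whose catalytic subunits can be exchanged for the immunoproteasome subunits encoded by PSMB8, PSMB9 and PSMB10. The peptides are pumped into the endoplasmic reticulum by the TAP1-TAP2 transporter and loaded, with the help of tapasin (TAPBP), onto a heavy chain paired with beta2-microglobulin (B2M). Most of these genes lie in the MHC region of chromosome 6 and respond to interferons through IRF and STAT factors, to NF-kB, and to the class I transactivator NLRC5. Loss of parts of this pathway is a known route by which tumour cells escape T cells.

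The libraries held 3299360 to 11304060 reads, and 3 reads, the limit taken here for a gene listed at 0, corresponded to 0.324 to 0.727 FPM. FPM, the unit of the deposited levels, counts fragments scaled for library depth. The targeted mRNAs checked the labels: IGF2BP1 was at 11.1 ± 0.539 FPM in siI1 against 43.9 ± 4.52 FPM in siC, IGF2BP2 at 13.4 ± 5.10 FPM in siI2 against 80.0 ± 4.72 FPM in siC, and IGF2BP3 at 4.52 ± 1.76 FPM in siI3 against 23.5 ± 5.18 FPM in siC (SD, n = 3 each). IGF2BP3 also stood at 64.7% of its siC level in siI1 and at 63.5% in siI2. Libraries differed in how levels varied with the GC content of transcripts. In siC replicates 1 and 3, genes were lower by 0.46 and 0.43 on the log2 scale for each 10 points of GC content, relative to the mean over all libraries, whereas the slopes of the other 10 libraries ran from -0.09 to 0.21. These siC libraries thus stood apart from the rest, and calls against siC below are set beside the result after a correction for GC content and transcript length. The RNA of the signal recognition particle, RN7SL, took 15.1% to 24.8% of reads in siI1, 23.1% to 28.0% in siI2, 19.9% to 28.3% in siI3 and 11.02% to 15.3% in siC, and the part of this difference in the comparisons with siC was not tested.

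Of 8 epithelial and ovarian carcinoma markers, KRT8 and KRT18 were abundant in the ES-2 libraries, at 44.0 and 158 FPM on average in siC. KRT19, EPCAM, CDH1, WT1 and PAX8 averaged 0.0451 to 0.518 FPM in siC, and MUC16 1.05 FPM. The highest value in any library was 2.39 FPM for WT1, 2.91 FPM for PAX8 and 10.6 FPM for MUC16. The 8 summed to 405 to 536 FPM in siI1, 258 to 339 FPM in siI2, 157 to 198 FPM in siI3 and 156 to 268 FPM in siC. All 4 mesenchymal markers were expressed, with sums of 2757 to 3138 FPM in siI1, 1444 to 1750 FPM in siI2, 1108 to 1322 FPM in siI3 and 1692 to 1775 FPM in siC. The 11 markers of leukocytes and professional antigen presenting cells, among them PTPRC, CD3E, CD14, CD74 and HLA-DRA, summed to 2.25 to 9.21 FPM in any library. Defining leukocyte genes were therefore at or near 0 in all 4 groups. Of the endothelial markers, CDH5 was present at 60.5 FPM in siC and VWF at 0.473 FPM. Of the epithelial markers, KRT8 and KRT18 rose in siI1, to 147 and 311 FPM (limma, adjusted p = 0.000173 and 0.0150). Of the mesenchymal markers, SPARC rose in siI1 (log2 fold change 1.90, limma adjusted p = 6.99e-05), to 2308 FPM against 626 FPM in siC, while FN1 fell in siI1 (-1.35, adjusted p = 0.000435) and siI3 (-1.19, adjusted p = 0.00241), VIM fell in siI3 (-1.52, adjusted p = 0.0264) and CDH2 was not called. CDH5 rose in all 3 knockdowns. Each of these calls also passed after the correction. It added calls for CDH2 in siI1 (0.58, limma adjusted p = 0.0191), KRT8 in siI2 (0.59, adjusted p = 0.0491) and SPARC in siI2 (0.96, adjusted p = 0.0200). The part of these marker changes in the results below was not tested.

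All 9 genes were expressed, at very different levels. Per kilobase of the longest annotated transcript, the siC means ran from 148 FPM for B2M through 48.1 for HLA-C, 42.9 for TAPBP and 35.7 for HLA-E to 19.9 for PSMB8, 16.1 for TAP1, 9.32 for HLA-B, 6.18 for PSMB9 and 1.04 for TAP2. HLA-B was thus the lowest of the 3 heavy chains, and TAP2 rested on 3 to 64 reads in a library. For HLA-C, PSMB8 and PSMB9 the longest transcript is longer than any protein-coding one. In PSMB9 it has 2676 bases, while the protein-coding transcripts hold 905 different 50-base stretches. Values of these genes per kilobase of a protein-coding transcript would be higher, so the order depends on the transcript taken.

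**Figure D1:**
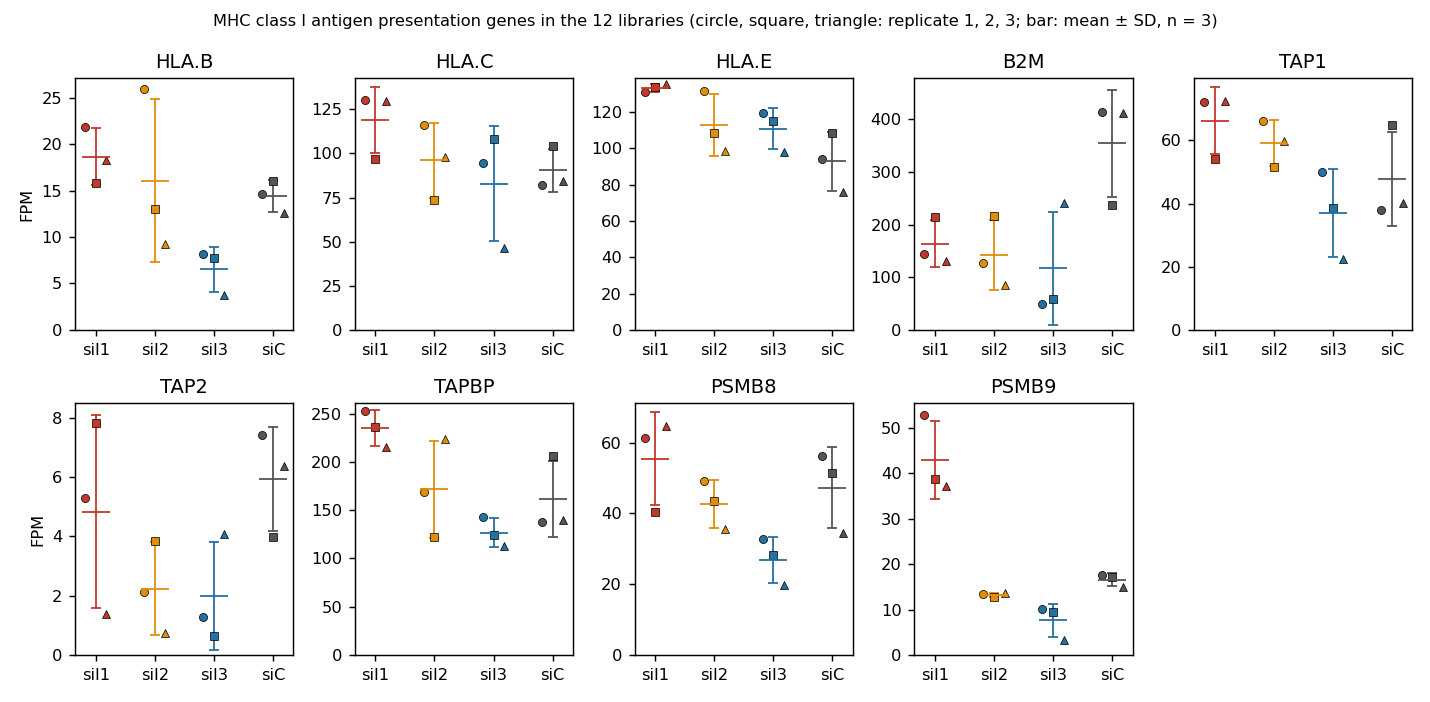
Level in FPM (linear axis from 0) of each of the 9 genes in the 3 libraries of siI1, siI2, siI3 and siC, with the mean ± SD as bars. PSMB9 lies between 37.3 and 53.0 FPM in siI1 and at or below 17.5 FPM in all other libraries, while B2M is at 414 and 412 FPM in siC replicates 1 and 3 and at or below 242 FPM elsewhere.

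HLA-B, a classical heavy chain that shows peptides to CD8 T cells, stood at 21.9, 15.8 and 18.3 FPM in siI1, at 26.0, 13.05 and 9.21 FPM in siI2, at 8.14, 7.75 and 3.72 FPM in siI3, and at 14.6, 16.1 and 12.6 FPM in siC. All 3 siI3 libraries lay below every other library, and siI2 overlapped siI1 and siC. HLA-B fell to 6.54 ± 2.45 FPM in siI3, against 14.4 ± 1.75 FPM in siC (SD, n = 3 each), a log2 fold change of -1.09 ± 0.33 (SE; limma, adjusted p = 0.0473). In a bulk library, fewer cells that express a gene and less RNA in each cell cannot be told apart. After the GC and length correction the log2 fold change was -1.30 (adjusted p = 0.0125). The call ended without any one of siC replicates 1, 2 and 3, siI1 replicates 1, 2 and 3, or siI3 replicates 1, 2 and 3, with adjusted p = 0.0541 to 0.162, and with edgeR (0.0503), a pseudocount of 4 (0.0561) or no filter on low values (0.117). Each log2 fold change given here is on the log2(FPM + 1) scale, which understates the change of low genes.

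HLA-C and HLA-E did not pass the test in any of the 6 comparisons. HLA-C, a classical heavy chain that is also a ligand of killer cell receptors, was at 119 ± 18.97 FPM in siI1, 96.0 ± 21.4 FPM in siI2, 82.9 ± 32.3 FPM in siI3 and 90.5 ± 12.2 FPM in siC. Its ranges overlapped in all pairs of groups, with the lowest library in siI3 replicate 3 at 46.4 FPM. HLA-E, the non-classical heavy chain that natural killer cells read through NKG2A, stood at 131, 134 and 135 FPM in siI1 against 93.9, 108 and 75.9 FPM in siC. The siI1 libraries lay close together and above siC, yet the log2 fold change of 0.53 ± 0.18 missed the threshold (limma, adjusted p = 0.0780; 0.38 with adjusted p = 0.0740 after the correction). HLA-E was the sole member with a positive log2 fold change in siI3 against siC, 0.26 ± 0.18 (limma, adjusted p = 0.343), and edgeR, DESeq2, limma-voom, RLE scaling and upper-quartile scaling called its siI1 difference.

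The heavy chains are near-identical in stretches, and reads from them can be split between genes. Over all 50-base stretches of the annotated protein-coding transcripts, 2.12% of those of HLA-B, 6.17% of HLA-C and 5.13% of HLA-E also occur in another gene. In GENCODE 29, HLA-B and HLA-C also overlap in exons on the same strand. Alleles carried by ES-2 were not examined, and how reads map to a polymorphic gene depends on them.

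The promoter of HLA-B is shown because HLA-B was the heavy chain that passed the test against siC. It covers 250 bases before the annotated start on chr6:31357180-31357429, minus strand, from RefSeq in the GRCh38.p14 build, with matches to the NF-kB consensus in capitals.
HLA-B: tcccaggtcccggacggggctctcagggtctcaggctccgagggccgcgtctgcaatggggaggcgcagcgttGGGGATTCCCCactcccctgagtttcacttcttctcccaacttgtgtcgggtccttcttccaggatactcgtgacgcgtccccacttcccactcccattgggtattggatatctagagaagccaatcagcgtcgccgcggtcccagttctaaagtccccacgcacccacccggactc
Of the 9 members, 8 had promoter windows in the RefSeq table (10 windows, since TAP1 and PSMB8 had 2 starts each); HLA-E was the other. Each window, from 250 bases before to 50 bases after a start, was searched on both strands for the interferon-stimulated response element (ISRE) as GAAANNGAAA and for the NF-kB consensus. HLA-B and HLA-C held an NF-kB match, which 11.3% of the 35116 promoter windows hold, and no ISRE match, which 3.57% hold. Both also held the X2 core TGACGC, found in 9.14% of windows. A match describes letters and is not evidence of binding. The search asked for exact letters, so a variant of the ISRE is missed, and a window without a match may still hold such an element.

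B2M, the light chain shared by all class I molecules and the one member outside the MHC region, on chromosome 15, behaved differently. It stood at 145, 215 and 132 FPM in siI1, at 126, 216 and 85.8 FPM in siI2, at 50.1, 59.5 and 242 FPM in siI3, and at 414, 238 and 412 FPM in siC. Thus siC replicates 1 and 3 lay above every other library, and siI3 replicate 3 lay far above the other siI3 libraries. B2M fell to 117 ± 108 FPM in siI3, against 354 ± 101 FPM in siC, a log2 fold change of -1.92 ± 0.46 (limma, adjusted p = 0.0222). The corresponding values were -1.10 ± 0.46 in siI1 (adjusted p = 0.137) and -1.36 ± 0.46 in siI2 (adjusted p = 0.115). After the GC and length correction they were -1.44 in siI3 (adjusted p = 0.0480), -0.58 in siI1 and -0.88 in siI2. The siI3 call ended with edgeR (adjusted p = 0.0682) and DESeq2 (adjusted p = 0.0884), with scaling to plain total reads, and without siC replicate 1, siC replicate 3, siI3 replicate 1 or siI3 replicate 2. With the correction it held in 3 of 12 fits that each left out 1 library.

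The level of B2M moved with the GC slope of the library, whose part in the B2M difference beyond the correction above was not tested. B2M has the lowest GC content of the 9 genes, 40.6% in its longest transcript, while HLA-C has the highest at 62.7%. The 2 libraries with a falling slope, both siC, held 412 to 414 FPM of B2M. The 4 libraries with a slope between -0.09 and 0.03 happened to be 1 of each group, and B2M was at 215 FPM in siI1 replicate 2, 216 FPM in siI2 replicate 2, 242 FPM in siI3 replicate 3 and 238 FPM in siC replicate 2. The 6 libraries with a rising slope, none of them siC, held 50.1 to 145 FPM, with 132 and 145 FPM in siI1, 85.8 and 126 FPM in siI2, and 50.1 and 59.5 FPM in siI3.

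**Figure D2:**
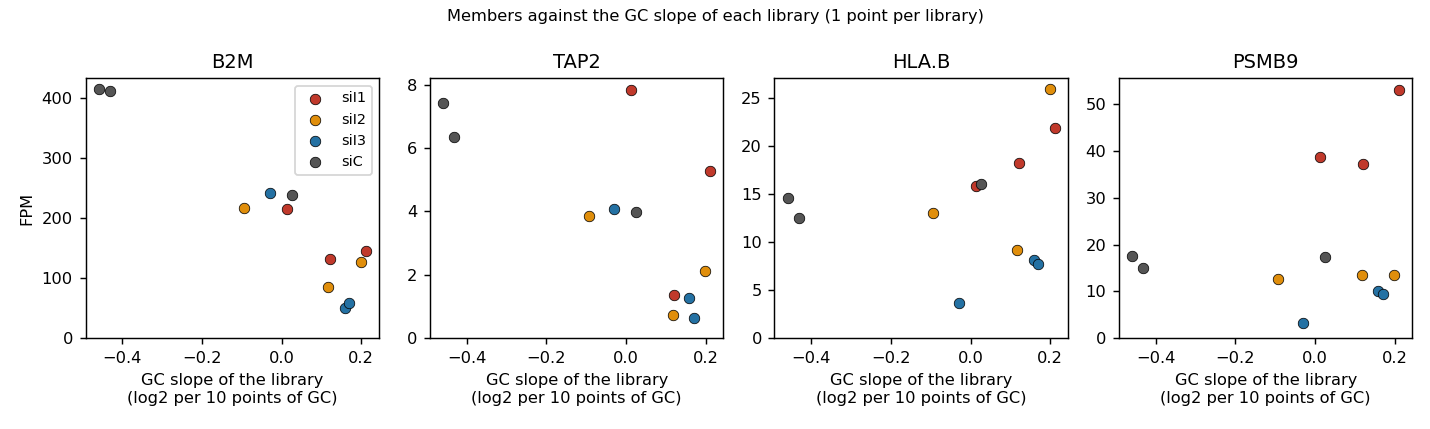
Level in FPM of B2M, TAP2, HLA-B and PSMB9 against the slope of each library's log2 levels over GC content, 1 point per library, coloured by siRNA group. B2M is highest in the 2 siC libraries with a falling slope and lies between 215 and 242 FPM in the 4 libraries with a flat slope, while PSMB9 is highest in the 3 siI1 libraries.

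The B2M promoter is shown because it is the one outside the MHC region. It covers chr15:44711267-44711516, plus strand, in GRCh38.p14, with 2 overlapping ISRE matches, from -144 to -129 with -1 as the base before the start, followed by an NF-kB match in capitals.
B2M: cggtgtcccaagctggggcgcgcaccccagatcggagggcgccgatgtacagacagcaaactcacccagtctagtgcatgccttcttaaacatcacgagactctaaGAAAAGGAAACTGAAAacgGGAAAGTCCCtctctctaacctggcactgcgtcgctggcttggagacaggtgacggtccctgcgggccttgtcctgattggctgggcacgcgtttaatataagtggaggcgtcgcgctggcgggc
The ISRE matches do not overlap the NF-kB match. B2M shares these motif types with TAP1 and TAPBP, whose levels did not follow it across libraries: over the 12 libraries Pearson r with B2M was -0.27 for TAP1 and -0.10 for TAPBP, given as a description. Among the members, B2M went most closely with TAP2 (r = 0.87 over the same 12 libraries).

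TAP1 and TAP2 encode the chains of the peptide transporter. TAP1 stood at 72.2, 54.1 and 72.6 FPM in siI1, at 66.0, 51.6 and 59.9 FPM in siI2, at 49.95, 38.5 and 22.3 FPM in siI3, and at 38.0, 64.9 and 40.3 FPM in siC. The siC libraries spread widely, with siC replicate 2 above most knockdown libraries, and no comparison with siC passed the test. TAP1 was higher in every siI1 and every siI2 library than in any siI3 library. TAP2 stood at 5.28, 7.84 and 1.37 FPM in siI1, at 2.13, 3.86 and 0.727 FPM in siI2, at 1.26, 0.635 and 4.08 FPM in siI3, and at 7.42, 3.99 and 6.36 FPM in siC. Groups overlapped except siI2 with siC, and its log2 fold changes against siC, -0.41 in siI1, -1.19 in siI2 and -1.35 in siI3, did not pass (limma, adjusted p = 0.626, 0.182 and 0.0926). Of the 50-base stretches of TAP2, 32.7% also occur in AL669918.1, which overlaps it on the same strand.

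TAPBP encodes tapasin, which bridges TAP and the heavy chain. It stood at 253, 236 and 216 FPM in siI1, at 169, 122.6 and 224 FPM in siI2, at 143, 124 and 113 FPM in siI3, and at 138, 207 and 140.1 FPM in siC. The siI1 libraries lay above all siC and all siI3 libraries. Against siC the log2 fold change of 0.56 ± 0.22 in siI1 did not pass (limma, adjusted p = 0.121; 0.29 with adjusted p = 0.327 after the correction), nor did -0.33 ± 0.22 in siI3 (adjusted p = 0.336; -0.56 with adjusted p = 0.0538 after the correction). Tapasin's paralogue TAPBPL, a peptide editor for class I, did pass: it was at 19.7 ± 2.2 FPM in siI1 against 7.52 ± 1.65 FPM in siC, a log2 fold change of 1.29 (limma, adjusted p = 0.0124; 1.06 with adjusted p = 0.0314 after the correction). The authors' deposited table gives TAPBPL a log2 fold change of 1.38 in siI1 with an FDR of 0.00905.

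PSMB8 and PSMB9 encode immunoproteasome subunits that take the places of PSMB5 and PSMB6. PSMB9 had the largest log2 fold change of the 9 genes in siI1. It stood at 53.0, 38.7 and 37.3 FPM in siI1, at 13.4, 12.7 and 13.6 FPM in siI2, at 10.1, 9.40 and 3.37 FPM in siI3, and at 17.5, 17.3 and 14.9 FPM in siC. The 4 groups did not overlap, in the order siI1, siC, siI2 and siI3 from high to low, although the steps from siI2 to siC (limma, adjusted p = 0.568) and from siI2 to siI3 (adjusted p = 0.189) did not pass the test. The log2 fold change in siI2 against siC was -0.30, and -0.04 after the GC and length correction (limma, adjusted p = 0.961). PSMB9 rose in siI1 to 43.0 ± 8.67 FPM, against 16.6 ± 1.44 FPM in siC, or 2.60 times the siC mean, with a log2 fold change of 1.31 ± 0.30 (limma, adjusted p = 0.0148). It fell in siI3 to 7.62 ± 3.70 FPM, a log2 fold change of -1.14 ± 0.30 against siC (adjusted p = 0.0280).

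The rise of PSMB9 in siI1 had adjusted p = 0.00633 after the GC and length correction, and stayed below 0.05 in all 12 corrected fits that each left out 1 library, with a highest value of 0.0461. Without the correction the call ended without siC replicate 1 (adjusted p = 0.0609), siC replicate 3 (0.0756) or siI1 replicate 1 (0.0962), with log2 fold changes of 1.35, 1.24 and 1.15. The fall of PSMB9 in siI3 had a log2 fold change of -0.83 after the correction and no longer passed (adjusted p = 0.0974), nor did it pass without siC replicate 1 (0.126), siC replicate 3 (0.0913) or siI3 replicate 2 (0.0578), with only the 6 libraries compared (0.0521) or with no filter (0.0702). In the authors' deposited table, PSMB9 has a log2 fold change of 1.38 in siI1 with an FDR of 0.0407 and is the sole member with an FDR below 0.05 in any knockdown. The exons of PSMB9 overlap those of PSMB8-AS1 on the same strand and those of PSMB8 on the opposite strand in GENCODE 29. Exons of PSMB8 and of TAP1 overlap those of PSMB8-AS1 on the opposite strand. No source used here says whether counting used strand. PSMB8-AS1 was itself at 1.30 ± 0.458 FPM in siI1 and 0.678 ± 0.470 FPM in siC.

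PSMB8 stood at 61.3, 40.5 and 64.8 FPM in siI1, at 49.2, 43.5 and 35.6 FPM in siI2, at 32.7, 28.3 and 19.8 FPM in siI3, and at 56.2, 51.3 and 34.4 FPM in siC. All 3 siI3 libraries lay below all other libraries, while siI1, siI2 and siC overlapped. Its log2 fold change in siI3 against siC was -0.79 ± 0.25, just short of the threshold (limma, adjusted p = 0.0535), and -0.82 after the correction (adjusted p = 0.0299). In siI1 it was 0.23 ± 0.25 (adjusted p = 0.579), with a 95% interval from -0.30 to 0.76.

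The ratio of each immunoproteasome subunit to the constitutive subunit it replaces, taken within a library, does not depend on the scaling of that library. These ratios were not corrected for GC content, and the part of the GC slope in them was not tested. PSMB9 to PSMB6 was 0.317 to 0.478 in siI1, 0.0975 to 0.121 in siI2, 0.0379 to 0.0829 in siI3 and 0.135 to 0.160 in siC, so that no groups overlapped. PSMB8 to PSMB5 was 0.786 to 1.17 in siI1, 0.640 to 0.875 in siI2, 0.489 to 0.618 in siI3 and 0.840 to 0.940 in siC. PSMB10 to PSMB7 was 0.136 to 0.236 in siI1, 0.0804 to 0.163 in siI2, 0.0309 to 0.113 in siI3 and 0.0688 to 0.0972 in siC, so that siI1 lay above siI3 and siC and overlapped siI2. The constitutive genes PSMB5, PSMB6 and PSMB7 were not called in any of the 6 comparisons, for example PSMB6 at 107 FPM in siI1, 120 FPM in siI2, 116 FPM in siI3 and 111 FPM in siC. In siI3, then, PSMB8 and PSMB9 were lower relative to their constitutive counterparts than in any other library, and in siI1 PSMB9 was higher.

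**Figure D3:**
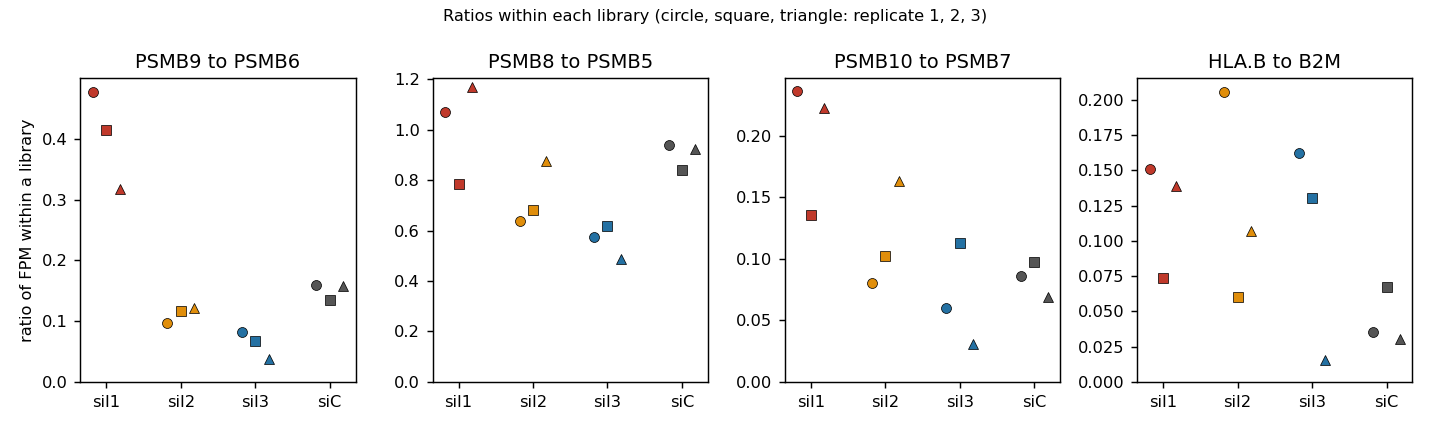
Ratio of FPM of 2 genes within each library (linear axes from 0) for siI1, siI2, siI3 and siC, 1 point per library. The PSMB9 to PSMB6 ratio is 0.317 to 0.478 in siI1 and at most 0.160 in all other libraries; the HLA-B to B2M ratio spans 0.0154 to 0.162 in siI3 and is 0.0306 to 0.0676 in siC.

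The TAP1 and PSMB9 genes lie head to head, and their promoters are shown together because PSMB9 was called in siI1 and TAP1 was not. The TAP1 window is chr6:32853705-32853954 on the minus strand and the PSMB9 window chr6:32853942-32854191 on the plus strand, in GRCh38.p14, so that they overlap at their far ends. Capitals mark 2 overlapping ISRE matches, from -134 to -119, and an NF-kB match in TAP1.
TAP1: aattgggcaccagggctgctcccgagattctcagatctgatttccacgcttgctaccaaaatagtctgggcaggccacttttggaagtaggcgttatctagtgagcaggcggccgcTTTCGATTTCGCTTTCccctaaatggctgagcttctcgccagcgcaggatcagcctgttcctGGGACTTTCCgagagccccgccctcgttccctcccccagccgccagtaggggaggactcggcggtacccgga
PSMB9: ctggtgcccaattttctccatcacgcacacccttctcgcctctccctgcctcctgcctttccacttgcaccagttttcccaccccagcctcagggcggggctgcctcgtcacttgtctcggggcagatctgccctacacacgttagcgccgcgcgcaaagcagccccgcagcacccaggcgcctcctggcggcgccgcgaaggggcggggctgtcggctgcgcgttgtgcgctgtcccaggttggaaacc
The PSMB9 window held no match to either motif. The matches marked in TAP1 lie between the TAP1 and PSMB9 starts, upstream of PSMB9 but beyond the far end of its window. The empty window therefore does not show that PSMB9 lacks these elements, and whether they act on PSMB9 was not tested. ISRE matches were also in the windows of TAP2, TAPBP and PSMB8, and NF-kB matches in TAPBP. Across the 12 libraries TAP1 and PSMB9 had a Pearson r of 0.76, given as a description, yet the PSMB9 to TAP1 ratio was 0.513 to 0.733 in siI1 and 0.266 to 0.460 in siC.

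Counted against siC, the 9 genes gave few calls. In siI1, 1 of 9 rose (PSMB9) and none fell, where 8.18% of 13782 genes tested were called and 3.77% were called higher; a share of 1 in 9 is near that of all genes. The median log2 fold change of the 9 was 0.39, against -0.05 over all genes tested, and 7 of 9 were positive. In siI2, 0 of 9 were called, where 1.51% of genes were called, and limma, edgeR and DESeq2 each gave 0. The median of the 9 was 0.03 against -0.09 over all genes. In siI3, 3 of 9 fell (HLA-B, B2M and PSMB9), where 10.6% of genes were called and 8.29% were called lower, with a median of -0.79 against -0.05 over all genes and 8 of 9 negative. Counted by libraries, 3 genes in siI1 (HLA-E, TAPBP and PSMB9) had every library above every siC library and 1 (B2M) had every library below, against 15.2% and 17.6% of all genes. In siI2, 3 genes (B2M, TAP2 and PSMB9) lay wholly below siC, against 12.3% of all genes, and in siI3, 3 genes (HLA-B, PSMB8 and PSMB9), against 20% of all genes. The 3 comparisons share the siC libraries, so their values are given side by side only.

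These counts moved with the libraries used. Leaving out replicate 1 or 3 of siC, or replicate 1 of siI1, brought the count in siI1 to 0. Calls over all genes in siI1 fell as well, to 268, 290 and 299 in the same order, from 1128. Leaving out replicate 1 or 3 of siC, or replicate 2 of siI3, brought the count in siI3 to 0. There calls over all genes fell to 89, 111 and 156, from 1460. After the GC and length correction, 1 of 9 was called in siI1 (PSMB9), 0 in siI2 and 3 in siI3 (HLA-B, B2M and PSMB8), with medians of 0.12, -0.12 and -0.82; 7.11%, 1.53% and 7.1% of 13361 genes were called. Without both siC replicates 1 and 3, which leaves a single siC library assumed to vary like the other groups, none was called in any knockdown, and 40, 1 and 15 genes were called in all. PSMB9 then had log2 fold changes of 1.25 in siI1 and -1.20 in siI3, and in siI3 HLA-B had -1.24 and B2M -1.39. The split of all calls also moved with scaling: of 1128 called in siI1, 519 were higher, against 722 of 1257 with upper-quartile factors, and of 1460 called in siI3, 317 were higher, against 603 of 1400.

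**Figure D4:**
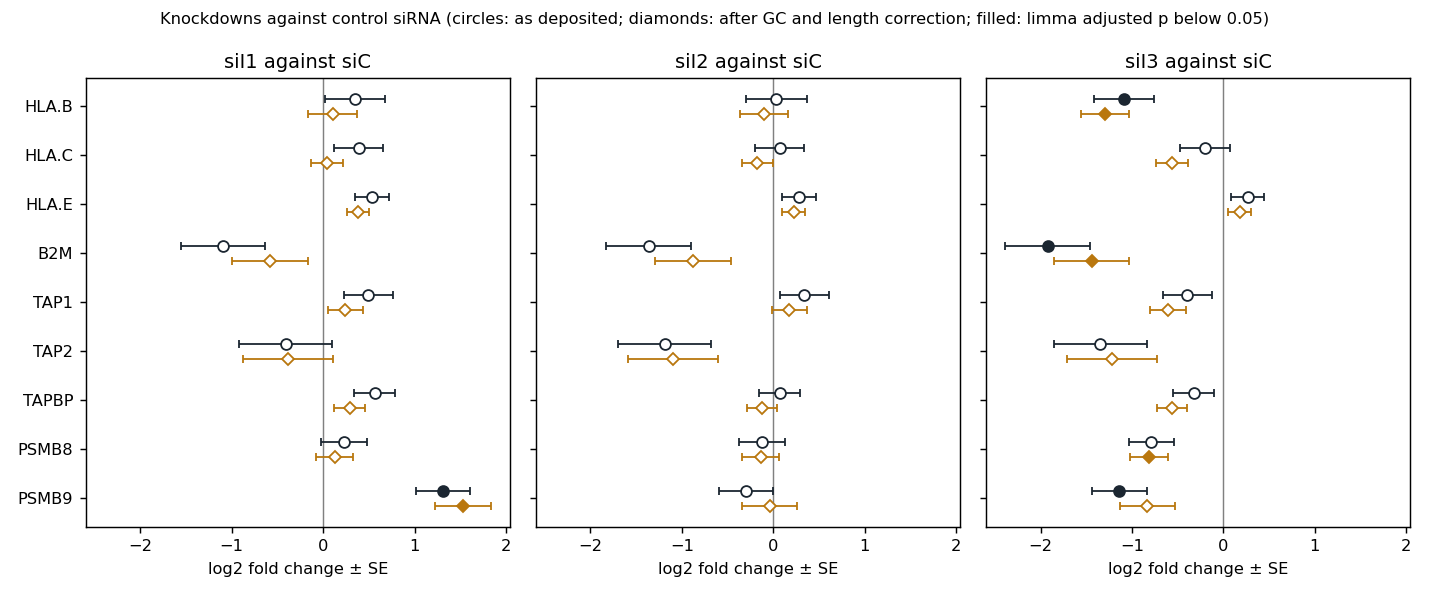
Log2 fold change (± SE) of the 9 genes in siI1, siI2 and siI3 against siC on the log2(FPM + 1) scale, as deposited (circles) and after GC and length correction (diamonds), with filled symbols for limma adjusted p below 0.05. PSMB9 at 1.31 is the filled point right of 0 in siI1, and HLA-B, B2M and PSMB9 are filled left of 0 in siI3.

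The direct comparison of siI1 with siI3 uses no siC library in its contrast and gave the most calls among the members of the 6 comparisons. All 9 genes had a positive log2 fold change, with a median of 0.89 against 0.01 over all genes tested. Of these, 4 (HLA-B, TAPBP, PSMB8 and PSMB9) were higher in siI1, where 7.05% of genes were called and 4.57% were called higher. The largest difference was that of PSMB9, at 2.45 ± 0.30 (limma, adjusted p = 6.45e-05), followed by HLA-B at 1.43 ± 0.33 (adjusted p = 0.0134). PSMB8 differed by 1.01 ± 0.25 (adjusted p = 0.0194) and TAPBP by 0.89 ± 0.22 (adjusted p = 0.0225). TAP1, at 0.89 ± 0.27, missed the threshold (adjusted p = 0.0597). In 6 of the 9 genes every siI1 library lay above every siI3 library, against 15.9% of all genes.

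After the correction 6 of 9 were called, with HLA-C (adjusted p = 0.0345) and TAP1 (adjusted p = 0.00951) added, where 11.9% of 13361 genes were called. PSMB9 was called whichever of the 12 libraries was left out. HLA-B was lost without siI1 replicate 1 (adjusted p = 0.0708), TAPBP without siI1 replicate 1, 2 or 3 or siI3 replicate 2 (0.0568 to 0.101), and PSMB8 without siI1 replicate 1 or 3 or siI3 replicate 2 or 3 (0.0503 to 0.106). B2M, at 0.83 ± 0.46, was not called (adjusted p = 0.334), and was called without siI3 replicate 3 (adjusted p = 0.00840), the library in which it was high. HLA-E differed least, by 0.27 ± 0.18, with a 95% interval from -0.12 to 0.66.

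Between siI1 and siI2, PSMB9 was the 1 gene of 9 called, at 43.0 ± 8.67 FPM in siI1 against 13.2 ± 0.479 FPM in siI2, a difference of 1.61 ± 0.30 (limma, adjusted p = 0.00672), where 2.4% of genes were called and 1.63% were called higher. The call ended without siI1 replicate 1 (adjusted p = 0.0584). All 9 differences were positive with a median of 0.32, against 0.05 over all genes. In 1 gene, PSMB9, every siI1 library lay above every siI2 library, against 13.3% of all genes. After the correction PSMB9 was again the 1 gene called (4.96% of 13361 genes). Between siI2 and siI3, 0 of 9 were called by limma and by edgeR and 1 by DESeq2 (HLA-B), where limma called 2% of genes. All 9 differences were positive with a median of 0.56 against -0.03 over all genes. After the correction HLA-B (1.19, adjusted p = 0.0169) and TAP1 (0.78, adjusted p = 0.0338) were called, among 3.98% of 13361 genes. In HLA-B, TAP1, PSMB8 and PSMB9, 4 of the 9, every siI2 library lay above every siI3 library, against 7.69% of all genes.

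**Figure D5:**
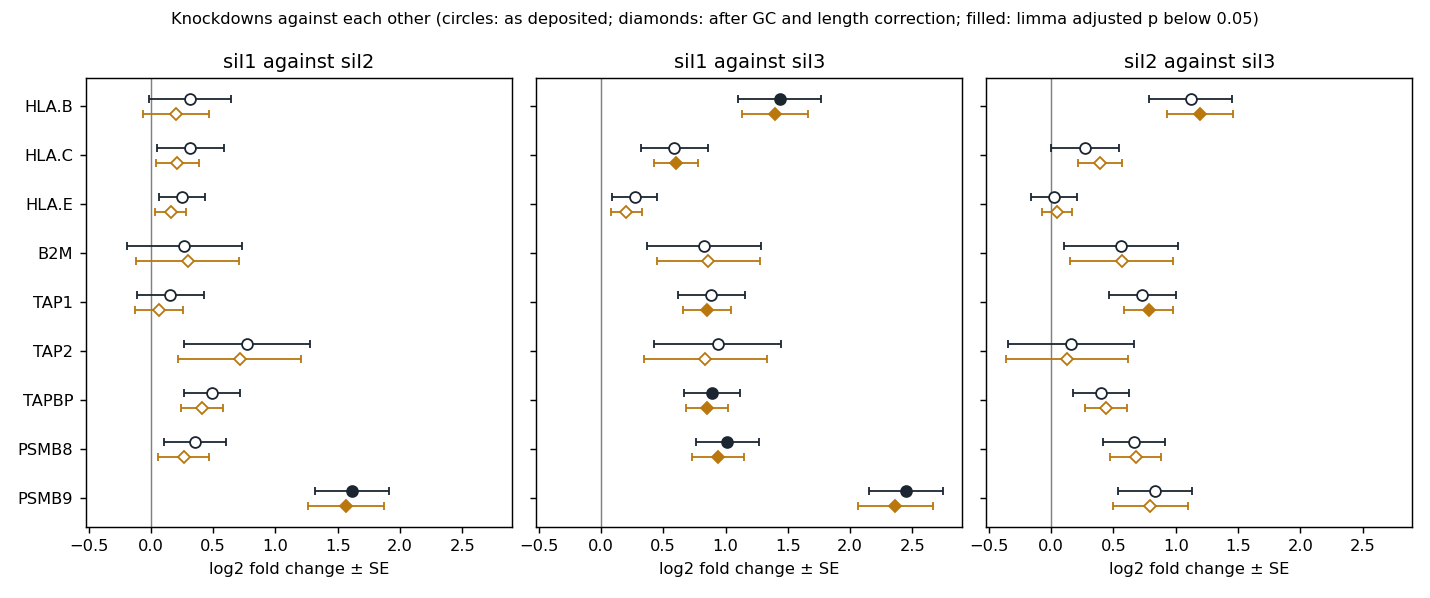
Difference in log2(FPM + 1) (± SE) of the 9 genes for siI1 against siI2, siI1 against siI3 and siI2 against siI3, as deposited (circles) and after GC and length correction (diamonds), with filled symbols for limma adjusted p below 0.05. All points as deposited lie right of 0, and the siI1 against siI3 panel holds 4 filled circles.

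For the pathway lists that follow, the share of the 13782 genes called higher and lower against siC was 3.77% and 4.42% in siI1, 0.573% and 0.936% in siI2, and 2.3% and 8.29% in siI3. In siI1 and siI3, 1 call in a list of 7 to 14 genes is near these shares.

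Genes of the proteasome activator fell in siI3. Of PSMB10, PSME1, PSME2, PSME3 and POMP, 4 fell in siI3 and none passed in siI1 or siI2. PSME1, a subunit of the PA28 activator that favours peptides for class I, fell to 28.3 FPM in siI3, against 74.5 FPM in siC (log2 fold change -1.36, limma adjusted p = 0.00964), and its partner PSME2 fell to 31.8 FPM in siI3, against 60.1 FPM in siC (-0.90, adjusted p = 0.0138). PSME3 and POMP (an assembly factor of the proteasome) also fell (-1.01 and -1.60). After the correction PSME1, PSME2 and PSME3 passed and POMP did not (adjusted p = 0.0552). PSMB10 was at 14.5 FPM in siI1 against 7.16 FPM in siC and missed the threshold (adjusted p = 0.0765; 0.150 after the correction).

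Of 9 peptide-trimming genes, 2 fell in siI3 and 1 in siI1. ERAP1, the aminopeptidase that trims peptides in the endoplasmic reticulum, fell to 25.9 FPM in siI3, against 50.03 FPM in siC (-0.92, limma adjusted p = 0.00960), and NRDC fell in siI3 (-1.23, adjusted p = 0.0309), but neither passed after the correction (0.0759 and 0.0553). TPP2 fell in siI1 (-1.23, adjusted p = 0.0279; 0.116 after the correction). Of 7 loading chaperones, CANX, which folds new heavy chains, fell to 241 FPM in siI3, against 539 FPM in siC (-1.18, adjusted p = 0.0132; 0.0242 after the correction), and TAPBPL rose in siI1 as given above.

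Of 16 other class I and class I-like heavy chains, 12 had enough reads to test. MICB, a stress ligand of the receptor NKG2D, fell to 8.13 FPM in siI3, against 23.7 FPM in siC (-1.42, limma adjusted p = 0.00177), and RAET1E, of the same ligand family, fell to 0.547 FPM in siI3, against 3.51 FPM in siC (-1.58, adjusted p = 0.0121). Both also passed after the correction. FCGRT, the heavy chain of the neonatal Fc receptor that also pairs with B2M, rose in siI2 to 8.73 FPM, against 1.48 FPM in siC (1.98, adjusted p = 0.00711; 1.69 with adjusted p = 0.00641 after the correction). HLA-F and HLA-G stayed below 2.1 FPM in every group mean and were not tested.

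Among 14 tested transcription factors of class I genes, IRF1, an interferon-induced activator of PSMB9, TAP1 and class I genes, rose in siI1. It was at 60.1 FPM in siI1, 27.4 FPM in siI2, 17.7 FPM in siI3 and 26.8 FPM in siC, a log2 fold change of 1.17 in siI1 against siC (limma, adjusted p = 0.00809; 0.00470 after the correction). ATF1 fell in siI1 (-1.03, adjusted p = 0.0440) and in siI2 (-1.27, adjusted p = 0.0471), and in neither after the correction. NLRC5, at 18.7 FPM in siI1 against 11.7 FPM in siC, did not pass (0.64, adjusted p = 0.0925; 0.32 with adjusted p = 0.328 after the correction). The group mean of IRF1 was highest in siI1 and lowest in siI3. Its difference in siI3 against siC did not pass (-0.56, limma adjusted p = 0.133, and 0.0767 after the correction). The part of IRF1 in the levels of the 9 genes was not tested.

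Of 12 genes of interferon receptors and JAK-STAT signalling, 9 were tested. JAK1, the kinase used by all interferon receptors, fell to 35.1 FPM in siI3, against 90.2 FPM in siC (-1.34, limma adjusted p = 0.00105), and STAT2 fell to 19.4 FPM in siI3, against 39.3 FPM in siC (-0.98, adjusted p = 0.00960). Both passed after the correction, in which JAK1 was also called higher in siI1. SOCS3, a feedback inhibitor of cytokine signalling, rose to 40.8 FPM in siI1 and to 30.7 FPM in siI3, against 16.1 FPM in siC (1.33 and 0.92, adjusted p = 0.00316 and 0.0265; 1.02 and 0.62 with adjusted p = 0.000971 and 0.0282 after the correction). PTPN2, a phosphatase that dampens JAK signalling, fell in siI3 (-1.36, adjusted p = 0.0312; 0.0761 after the correction).

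Of 12 genes listed as regulators of class I, EZH2, the enzyme of a repressive chromatin complex, and UBE2J1, of heavy chain degradation, each fell in siI1 (-0.93 and -1.05, limma adjusted p = 0.0394 and 0.0342) and in siI3 (-0.996 and -1.11, adjusted p = 0.0280 and 0.0268). None of these 4 calls held after the correction (adjusted p = 0.0756 to 0.161). Of 11 MHC class II genes, 4 were tested and none was called against siC. Between knockdowns, 1 of the 4 was called higher in siI1 than in siI3, where 4.57% of genes were. In siI2 against siI3, 2 of the 4 were called higher, where 2% of genes were called in either direction. HLA-DPB1 was at 6.42 FPM in siI1, 9.26 FPM in siI2, 4.95 FPM in siI3 and 6.29 FPM in siC. HLA-DPA1 was at 5.21 FPM in siI1, 6.46 FPM in siI2, 1.06 FPM in siI3 and 3.15 FPM in siC. HLA-DRA averaged at most 0.468 FPM in any group.

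Among 9311 genes averaging 5 FPM or more, those whose levels went most closely with the mean of the 9 members over the 12 libraries were GFPT2 (r = 0.97), ZNF608 (0.97), PTTG1IP (0.95), DHRS3 (0.94), TGFBI (0.94) and UBE2L6 (0.93). The 12 libraries share depth, GC slope and siRNA group, and these r values are descriptions. UBE2L6, an interferon-induced enzyme of the ISG15 pathway, was at 96.0 FPM in siI1, 41.2 FPM in siI2, 20.6 FPM in siI3 and 56.2 FPM in siC, and DHRS3 at 24.6 FPM in siI1, 5.36 FPM in siI2, 2.24 FPM in siI3 and 10.2 FPM in siC. Both had the order siI1, siC, siI2 and siI3 seen for PSMB9. The mean of the members has this order too, so choosing genes by likeness to it favours the order. It is no separate result.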

How the data were processed

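Per the labels' protocols, total RNA was depleted of ribosomal RNA, fragmented, reverse transcribed with random hexamers and sequenced as paired reads. Per the submitters' processing notes, cutadapt 1.6, TopHat2 2.0.13, featureCounts 1.4.6 and edgeR 3.12 were used with the hg19 build; strand settings and annotation are not stated. Per the file headers, the deposited table holds FPM, a signal normalized by the authors, for each library, and the authors' log2 fold changes and FDR (adjusted p-values), quoted only as theirs.

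Values were whole multiples of 1 read in 100% of cases (tolerance 0.01), so reads were recovered; edgeR 4.0.16 on these reads called 1388, 185 and 1370 genes in siI1, siI2 and siI3 against siC. The planned test for counts gave way to limma 3.58.1 (R 4.3.3), using trended variance on log2(FPM + 1) values, 1 coefficient per group over 12 libraries, since the table is normalized; this limma fit was tested on simulated data. Genes kept by filterByExpr (minimum count 10) numbered 13782 without the 92 ERCC spike-ins, and p-values were adjusted by Benjamini-Hochberg in each comparison (called below 0.05). The correction subtracted from each library a loess surface (span 0.5) of its deviations over the GC content and the length of each gene's longest GENCODE 29 transcript (13361 genes, 96.9%). In HLA-C, PSMB8 and PSMB9 that transcript is not a protein-coding one, and the correction was not tried with other transcripts. Identifiers matched GENCODE 29 for 52338 rows. Replicates all differed by more than sampling noise (chi-square per degree of freedom 8.43 to 88.6). The members, lists and the rule for named genes (all members, up to 4 called genes per list, and the 6 most alike) were chosen with earlier results of these data known. Alternatives were DESeq2 1.42.0, edgeR, voom, other scalings, pseudocounts (0.25 and 4) and filters, the replicate number as a block, only the 6 libraries compared, the correction, and leaving out libraries; those leaving out libraries after the correction, or siC replicates 1 and 3 together, were chosen after seeing the data. Limits of 3 reads cover counting error only. Some genes of the pathway are not reported here.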

Additional observations from a re-analysis of the deposited data

Results flagged for a closer look

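For 4 of the members the effects of 2 knockdowns against siC differed when the difference itself was tested, in the direct limma comparison. Its contrast uses no siC library, but the siC libraries shared in the estimate of the spread. The difference in log2 fold change between siI1 and siI3 was 2.45 for PSMB9, 1.43 for HLA-B, 1.01 for PSMB8 and 0.89 for TAPBP, with siI1 higher in all libraries in each case. Between siI1 and siI2 it was 1.61 for PSMB9, again with all 3 siI1 libraries above all 3 siI2 libraries.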

How the results depend on the processing

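No member's log2 fold change that was called changed sign under any alternative tried. Against siC, the number of the 9 members called in siI1 was 2 with edgeR, DESeq2, limma-voom, RLE scaling, upper-quartile scaling or only the 6 libraries compared, where the limma fit had 1; leaving out 1 library at a time gave 0 to 3, and 1 to 2 after the GC and length correction. In siI2 it was 0, and 0 to 1 with a library left out, with or without the correction. In siI3 it was 3, 1 without a filter on low values, 2 with edgeR, plain total reads, a pseudocount of 4, only the 6 libraries compared, or the correction with the replicate block, 4 with limma-voom or a mean of at least 5 FPM, 0 to 4 with a library left out and 0 to 5 with the correction as well. Without both siC replicates 1 and 3 it was 0 in siI1 and 0 in siI3. Between siI1 and siI2 it was 1, and 0 to 1 with a library left out (1 to 2 corrected). Between siI1 and siI3 it was 4, 2 without a filter, 5 with DESeq2, RLE scaling, plain total reads or the correction with the replicate block, 6 with the correction, 1 to 5 with a library left out and 5 to 6 corrected. Between siI2 and siI3 it was 0, 1 with DESeq2, 2 with the correction, 1 with the correction and the replicate block, 0 to 1 with a library left out and 0 to 2 corrected. The cause was not tested, except that leaving out libraries also leaves fewer samples. Calls over all genes against siC moved too when 1 library was left out without the correction. They ran from 268 to 2602 in siI1, from 28 to 1572 in siI2 and from 89 to 2824 in siI3.

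The replicate block alone left the 6 counts of members at 1, 0, 3, 1, 4 and 0 in the same order. It lowered the calls over all genes against siC to 696 (siI1), 95 (siI2) and 745 (siI3), where the fit without it gave 1128, 208 and 1460. Same-numbered libraries correlated at -0.455 to 0.447 in their deviations, and 1 of 12 libraries correlated best with its own number. The deviations showed no pairing by number, but they were not corrected for GC content, so this check cannot exclude a pairing. With DESeq2 the calls over all genes were 2014, 716 and 2296. Depth limits TAP2 most, at 3 to 64 reads a library.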
